A study of Mus musculus with 8 samples.

Results

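The expression of 42 genes of the lysosome was examined in mouse calf muscle after 5 days of disuse. The genes were taken by symbol from a fixed list and comprised 11 cathepsins, 11 other soluble lysosomal proteins, 6 proteins of the lysosomal membrane and 14 subunits of the vacuolar proton pump (V-ATPase). Each gene was matched to 1 of the 21212 probe sets on the arrays. The 4 hind limb unloaded (HU) arrays carried RNA from the gastrocnemius and plantaris of wild type C57BL/6J females, 7 weeks old, whose hind limbs were kept off the cage floor for 5 days. The 4 weight bearing (WB) arrays carried RNA of the same muscles from mice of the same strain, sex and age that walked normally. All mice were wild type and housed singly, and each array carried an independent RNA sample that the labels assign to a separate biological replicate. Whole muscle was used, so RNA came from muscle fibres and from every other cell of the tissue.

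Lysosomes are acid compartments in which proteins, lipids, glycogen and other sugars delivered by endocytosis or autophagy are taken apart. The cathepsins are their proteases, the other hydrolases cut lipids and sugar chains, the membrane proteins shield the membrane or carry products out, and the V-ATPase pumps protons inward to keep the interior acid. Skeletal muscle fibres use autophagy and lysosomes beside the ubiquitin-proteasome system when they lose protein, and macrophages, which are rich in lysosomes, also reside in muscle.

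The arrays were alike in brightness, with medians of between 6.28 and 6.33 on the log2 scale, and correlated at 0.996 to 0.997 within a group and at 0.992 to 0.994 between groups. Markers of muscle fibres were bright on all arrays, and their mean log2 level was 12.55 to 12.59 in unloaded and 12.70 to 12.76 in weight bearing muscle. Of 12 fibre markers 0 were higher and 5 lower in unloaded muscle by limma, a linear model that shares variance between probe sets, against 0 and 5 when p was left unadjusted (threshold 0.05) and 1 and 5 in the methods' t-test, the parametric test named by the study and run here with unequal variances. Among the 5 called lower by limma was Myh2, the fast oxidative myosin heavy chain, with a difference of -0.79 (adjusted p = 0.00093, and 0.0561 by the methods' t-test). Without weight bearing replicate 2, 3 fibre markers were lower, as they were without any 1 of 5 other arrays. One weight bearing array, replicate 2, stood apart in some genes of neutrophils and some of bone-resorbing cells. Its level of Acp5, tartrate-resistant acid phosphatase, was 8.00, against 6.23 to 6.68 on the other weight bearing arrays. Its level of Mpo, myeloperoxidase of neutrophils, was 6.22, against 5.01 to 5.10. Its level of Mmp9, a matrix metalloproteinase on the list of markers of bone-resorbing cells (osteoclasts), was 7.91, against 6.36 to 6.65. Some other markers did not stand out there, such as Calcr of the same list (5.65, others 5.44 to 5.81) and Adgre1 of macrophages (6.92, others 6.67 to 7.02). Calls of named genes, and counts, that changed without this array are given beside the results they touch.

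Differences below are those of mean log2 levels, unloaded minus weight bearing, so that a positive value means higher in unloaded muscle. A gene is called higher or lower when its limma p, adjusted by Benjamini-Hochberg over all 21212 probe sets, was under 0.05. Of the 42 lysosomal genes, 9 were higher, 11 were lower and 22 were not called. The shares of 21.4% higher and 26.2% lower stand beside 12.8% higher and 11.0% lower among all probe sets. All 42 genes lay in the brighter 50% of probe sets, where 16.5% were higher and 18.4% lower. The HU and WB arrays did not overlap for 22 of the 42 genes (52.4%), against 27.5% of all probe sets. The share without overlap among the brighter 50% was not counted. By the methods' t-test 6 were higher and 7 lower, against 6.57% and 6.48% of all probe sets. Without weight bearing replicate 2 limma called 6 higher and 9 lower.

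The calls ran in different directions in the 4 groups of genes. Among the cathepsins 1 was higher and 6 lower, with a median difference of -0.17. Among the other soluble proteins 1 was higher and 5 lower, with a median of -0.13. Membrane proteins gave 4 higher and 0 lower, with a median of 0.16, and the proton pump gave 3 higher and 0 lower, with a median of 0.03. Both counts of 0 stayed at 0 in the methods' t-test and when p was left unadjusted, but the methods' t-test called 3 cathepsins lower in place of 6, 4 other soluble proteins lower in place of 5, 3 membrane proteins higher in place of 4 and 1 pump gene higher in place of 3. The median difference of all probe sets was 0.04, and that of the 42 genes was -0.03, with a range of -0.88 for Ctsk to 0.76 for Npc1. Without weight bearing replicate 2, limma called 4 cathepsins lower, 2 membrane proteins higher and 2 pump genes higher. Differences between these groups of genes were not tested. The changes were small, and 5 of the 9 higher genes and 7 of the 11 lower genes changed by at least 1.2-fold.

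**Figure D1:**
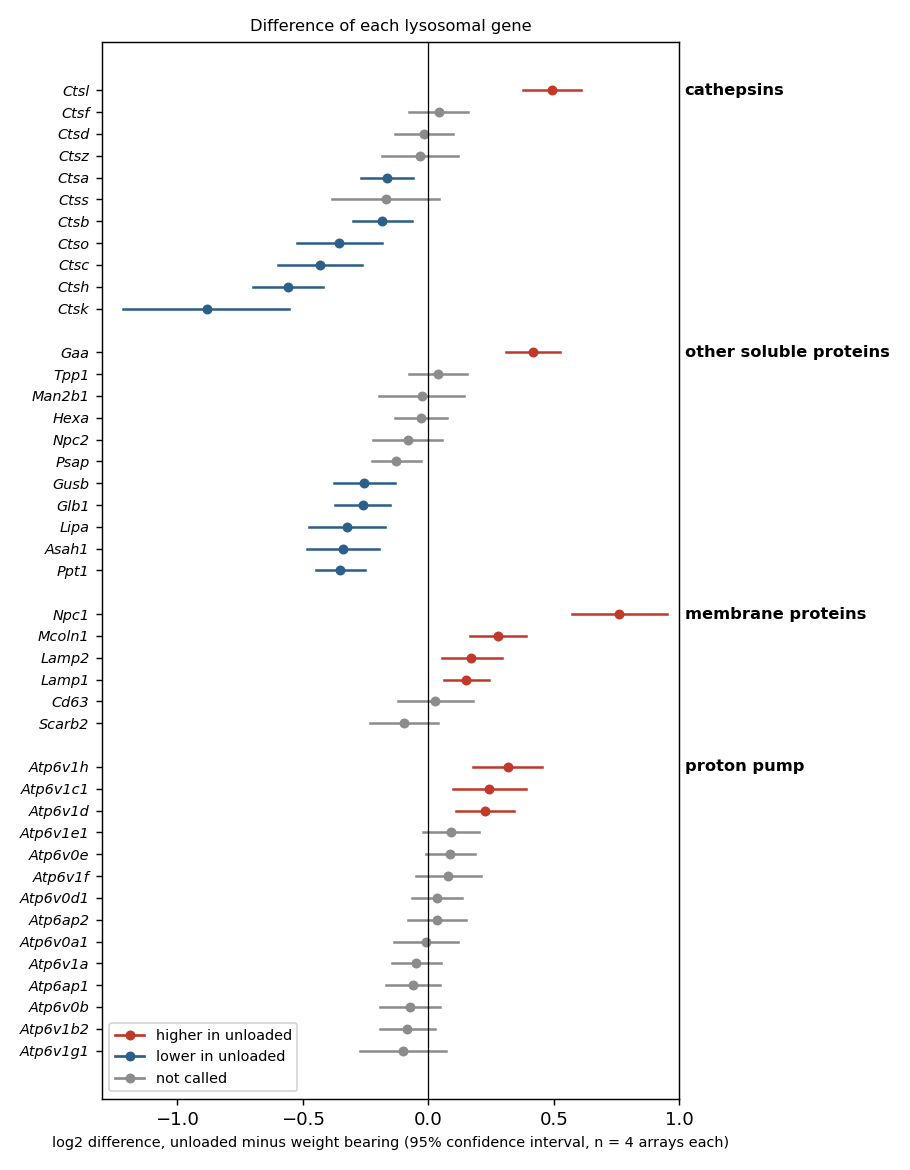
Differences of mean log2 expression, unloaded minus weight bearing, for the 42 lysosomal genes in their 4 groups, with 95% confidence intervals from limma (4 arrays a group). Points run from -0.88 for Ctsk to 0.76 for Npc1, called cathepsins and soluble enzymes lie mostly left of 0, and called membrane and pump genes lie right of it.

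The transcription factor TFEB and its relatives bind an E-box element that is shared by many lysosomal genes, with the letters CACGTG and, in its longer palindromic form, TCACGTGA. Both strings read the same on both strands, and the longer holds the shorter. Promoters of RefSeq (GRCm38.p6, 250 bases before to 50 bases after each start site) were at hand for 34 of the 42 genes. CACGTG occurred in 12 of these 34 genes (35.3%), against 2187 of 27025 genes with a promoter (8.09%), and TCACGTGA in 6 of 34 (17.6%), against 304 of 27025 (1.12%). The occurrences were found among genes of every call. Of the 12 genes with CACGTG 4 were higher, 2 lower and 6 not called, and the 34 genes with a promoter divided into 6 higher, 8 lower and 20 not called. The windows of 30 bases are shown, 5′ to 3′ along the gene's strand with the match in capitals, for the 6 genes that held the longer form and for the 4 called genes that held only the shorter form, so that promoters of higher, lower and uncalled genes can be set side by side. A match describes the letters only.
Mcoln1 (higher), chr8:3500462-3500491, plus strand, match from 46 bases upstream of the start site: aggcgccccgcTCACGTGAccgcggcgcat
Ctsa (lower), chr2:164833749-164833778, plus strand, match from 13 bases upstream: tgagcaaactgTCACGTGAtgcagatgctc
Ctsd (not called), chr7:142387908-142387937, minus strand, match from 99 bases upstream: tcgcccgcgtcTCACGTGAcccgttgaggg
Atp6v0d1 (not called), chr8:105566050-105566079, minus strand, match from 4 bases upstream: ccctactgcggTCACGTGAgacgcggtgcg
Atp6v0e (not called), chr17:26676387-26676416, plus strand, match just after the start site: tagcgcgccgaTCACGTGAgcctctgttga
Atp6v1a (not called), chr16:44139373-44139402, minus strand, match from 132 bases upstream: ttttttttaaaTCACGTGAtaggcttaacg
Gaa (higher), chr11:119267811-119267840, plus strand, match from 140 bases upstream: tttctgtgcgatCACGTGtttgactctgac
Ctsl (higher), chr13:64370739-64370768, minus strand, match from 236 bases upstream: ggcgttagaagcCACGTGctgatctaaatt
Lamp1 (higher), chr8:13159088-13159117, plus strand, match from 61 bases upstream, the first of 4: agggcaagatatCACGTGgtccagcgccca
Glb1 (lower), chr9:114401018-114401047, plus strand, match from 48 bases upstream: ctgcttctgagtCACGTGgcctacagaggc

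Ctsl, cathepsin L, was the only cathepsin called higher. This cysteine endopeptidase is known as a gene raised in many kinds of muscle wasting. Its log2 level was 11.01, 11.00, 11.05 and 10.89 on the unloaded arrays, against 10.55, 10.46, 10.45 and 10.53 on the weight bearing arrays. All 4 unloaded arrays lay above all 4 weight bearing arrays, with a gap wider than the spread within either group. The difference was 0.49 ± 0.05 (SE, n = 4 arrays a group), or 1.41-fold (limma adjusted p = 0.000175).

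Ctsk, cathepsin K, the collagen-cutting protease that is abundant in osteoclasts and is also made by fibroblasts, had the largest fall of the 42 genes. It measured 6.36, 6.28, 6.26 and 6.41 in unloaded muscle, against 7.13, 7.75, 6.97 and 7.00 in weight bearing muscle. The groups did not overlap, but weight bearing replicate 2, the array with raised Acp5 and Mpo, was well above the other weight bearing arrays. The difference was -0.88 ± 0.15, so that Ctsk was 1.85-fold lower (adjusted p = 0.00235). Without weight bearing replicate 2 it was -0.70 and still called, whereas the methods' t-test on all arrays gave an adjusted p of 0.0794.

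Ctsh, cathepsin H, an aminopeptidase of the same papain family, was also clearly separated. It measured 7.04, 6.97, 6.84 and 6.85 in unloaded muscle, against 7.50, 7.59, 7.44 and 7.41 in weight bearing muscle. Every unloaded array lay below every weight bearing array, and the difference was -0.56 ± 0.06, or 1.47-fold lower (adjusted p = 0.000235). Ctsc, cathepsin C or dipeptidyl peptidase I, which activates serine proteases of immune cells, measured 9.09, 9.01, 8.97 and 8.78 in unloaded muscle, against 9.47, 9.49, 9.36 and 9.26 in weight bearing muscle. Again the groups did not overlap, and the difference was -0.43 ± 0.08, or 1.35-fold lower (adjusted p = 0.00292). For Ctso, cathepsin O, a little-studied member of the papain family, the levels were 7.44, 7.19, 7.07 and 7.24 in unloaded muscle, against 7.58, 7.50, 7.61 and 7.66 in weight bearing muscle. The highest unloaded array came close to the lowest weight bearing array without reaching it, and the difference was -0.35 ± 0.07 (adjusted p = 0.00781, and 0.0705 by the methods' t-test).

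The fall of the remaining called cathepsins was smaller than 1.2-fold. Ctsb, cathepsin B, a cysteine protease found in most cells, measured 10.51, 10.59, 10.51 and 10.40 in unloaded muscle, against 10.62, 10.70, 10.69 and 10.73 in weight bearing muscle. The groups were separate by a narrow margin, and the difference was -0.18 ± 0.05 (adjusted p = 0.0301). Ctsa, cathepsin A, a serine carboxypeptidase that also protects beta-galactosidase and neuraminidase 1 in a complex, had a difference of -0.16 ± 0.05 (adjusted p = 0.0272), with levels of 10.12 to 10.20 in unloaded and 10.26 to 10.37 in weight bearing muscle. Both calls depended on single arrays, since the adjusted p reached 0.0791 for Ctsb without unloaded replicate 4 and 0.0738 for Ctsa without weight bearing replicate 2. By the methods' t-test Ctsb had an adjusted p of 0.0623, and without weight bearing replicate 2 one of 0.0664.

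Ctss, Ctsz, Ctsf and Ctsd were not called. Ctss, cathepsin S of antigen-presenting cells, had a difference of -0.17 with a 95% confidence interval of -0.39 to 0.04, and its arrays ranged from 6.66 to 6.99 in unloaded and from 6.77 to 7.21 in weight bearing muscle. Ctsd, cathepsin D, the main aspartic protease of lysosomes, had a difference of -0.02 with an interval of -0.13 to 0.10. For Ctsz, a carboxypeptidase, the interval was -0.19 to 0.12, and for Ctsf, a further cysteine protease, -0.08 to 0.16. In all 4 genes the HU and WB arrays overlapped. The 9 cysteine cathepsins as a class thus held 1 gene called higher, 5 called lower and 3 not called.

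**Figure D2:**
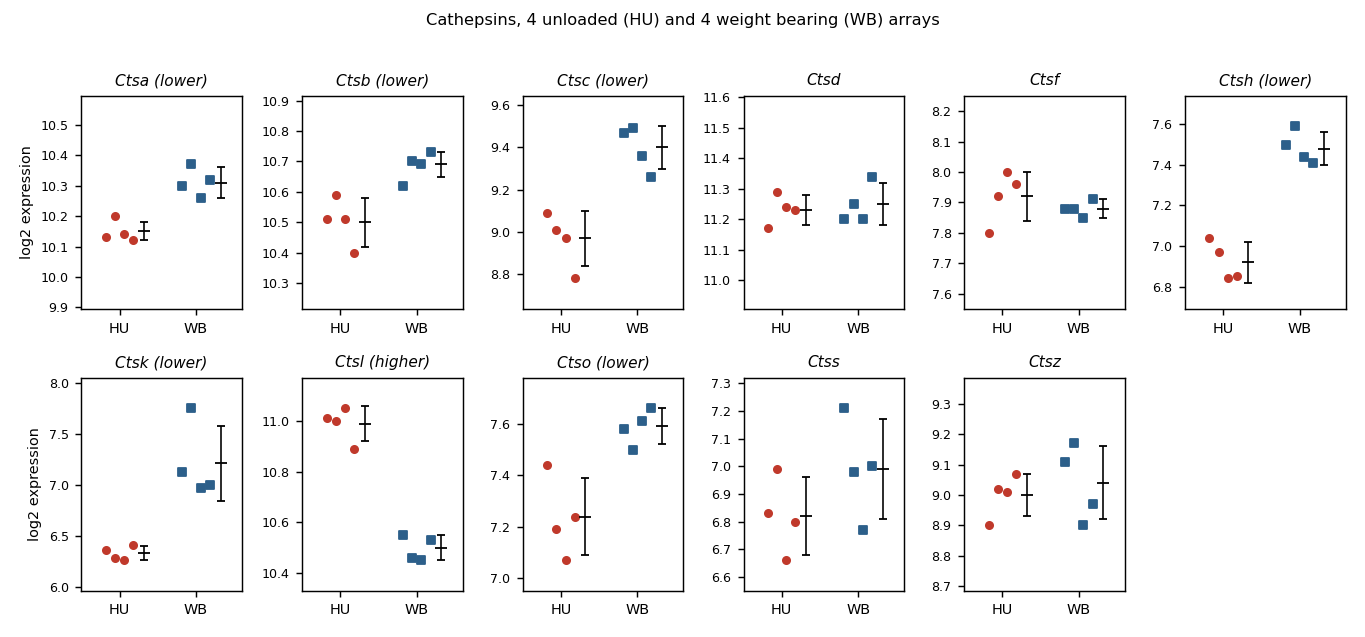
Log2 expression of the 11 cathepsins on the unloaded (HU) and weight bearing (WB) arrays; each point is an array, the bar is the mean ± SD of 4 arrays, and each panel has its own axis. Ctsl is higher in HU (10.89 to 11.05) than in WB (10.45 to 10.55), Ctsk, Ctsh, Ctsc, Ctso, Ctsb and Ctsa are lower, and weight bearing replicate 2 is the high point of Ctsk at 7.75.

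Markers of other cells of the tissue were counted in the same fit. Of 14 macrophage markers 0 were higher and 7 lower (0 and 8 with p left unadjusted, 0 and 5 in the methods' t-test). The sum of their linear levels was 1941 to 2359 in unloaded muscle, against 2556 to 3070 in weight bearing muscle. Adgre1, an adhesion receptor on the surface of mature macrophages, measured 6.05, 6.21, 6.01 and 6.00 in unloaded muscle, against 7.02, 6.92, 6.67 and 6.71 in weight bearing muscle. No unloaded array reached the lowest weight bearing one, and the difference was -0.76 ± 0.08 (adjusted p = 0.000211). Mrc1, the mannose receptor, fell by 0.69, and C1qb, a complement subunit made by macrophages, fell by 0.59. The 7 markers not called by limma were Mertk, with a difference of 0.08, Cx3cr1 (-0.002), Fcgr1 (-0.05), Aif1 (-0.08), Cd163 (-0.18), Cd14 (-0.25) and Itgam (-0.28). Lyz2, lysozyme, had a difference of -0.40 (adjusted p = 0.0247), but 0.106 by the methods' t-test and 0.0596 to 0.0672 without any 1 of 4 arrays, weight bearing replicate 2 among them. Without weight bearing replicate 2, 6 macrophage markers were lower.

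Of 9 fibroblast markers 0 were higher and 7 lower, or 77.8% (0 and 8 with p left unadjusted, 0 and 7 in the methods' t-test). The linear sums of these markers were 6952 to 7262 in unloaded and 10436 to 12018 in weight bearing muscle. Col1a1, the main chain of type I collagen, fell by 2.48 and Thy1, a surface protein of fibroblasts, fell by 1.09. The 2 markers not called were Pdgfra, with a difference of -0.11 (limma adjusted p = 0.0898), and Dcn, with one of -0.02. Endothelial markers gave 2 lower of 8 (Kdr and Emcn; 2 by both other tests), with sums of 3626 to 3725 in unloaded and 3766 to 4334 in weight bearing muscle.

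Of 7 osteoclast markers 0 were called in either direction (1 lower, Calcr, with p left unadjusted, 0 in the methods' t-test). Without weight bearing replicate 2, 1 was lower, Mmp9, a matrix metalloproteinase, with a difference of -0.27 (adjusted p = 0.0352). Their sums were 368 to 393 in unloaded and 374 to 718 in weight bearing muscle, the upper end being weight bearing replicate 2. Neutrophil markers gave 1 higher of 8 (Csf3r), a share of 12.5% that is near the 12.8% of all probe sets. Sums of the neutrophil markers were 294 to 317 in unloaded and 243 to 454 in weight bearing muscle. Without weight bearing replicate 2 they gave 4 higher. Lymphocyte markers gave 0 of 7 (1 higher with p left unadjusted, 0 in the methods' t-test), with sums of 182 to 195 in unloaded and 173 to 189 in weight bearing muscle.

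Arrays have no true zero, so no marker could be called absent. In whole muscle, fewer cells of a type and less RNA per cell cannot be told apart. The part that macrophages, fibroblasts or the other cell types had in the falls of the cathepsins and of the other hydrolases was not tested.

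**Figure D3:**
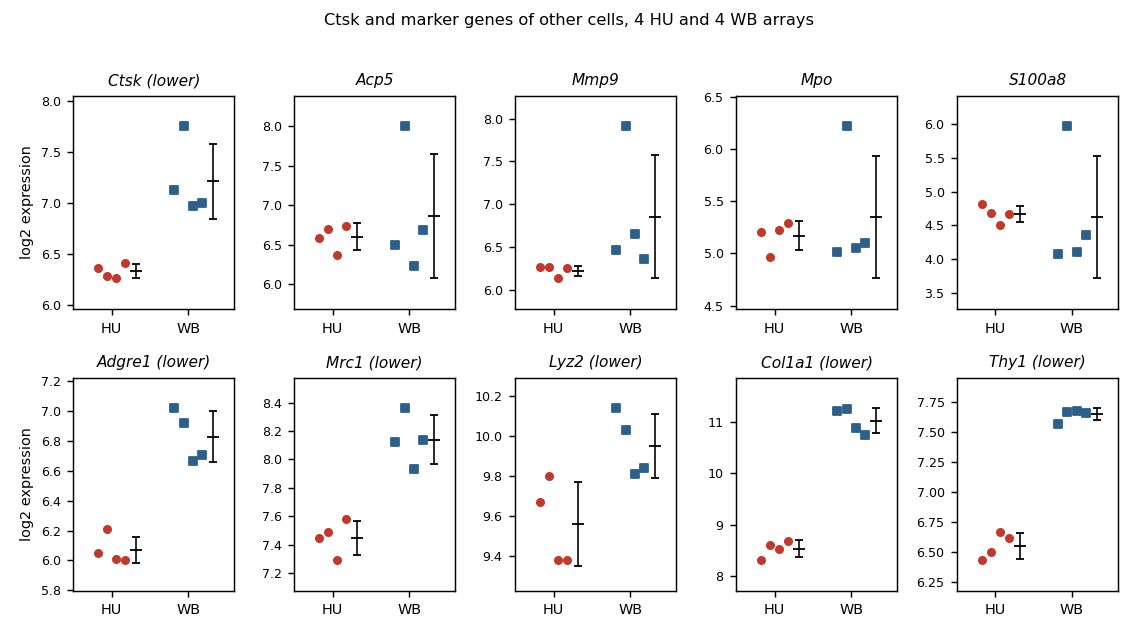
Log2 expression of Ctsk and of genes that mark bone-resorbing and myeloid cells (Acp5, Mmp9, Mpo, S100a8), macrophages (Adgre1, Mrc1, Lyz2) and fibroblasts (Col1a1, Thy1) on the unloaded (HU) and weight bearing (WB) arrays; points are arrays, bars are means ± SD (n = 4), and each panel has its own axis. Weight bearing replicate 2 is the high point for Ctsk (7.75), Acp5 (8.00), Mmp9 (7.91), Mpo (6.22) and S100a8 (5.97). All weight bearing arrays lie above all unloaded arrays for Adgre1, Mrc1, Lyz2, Col1a1 and Thy1.

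Gaa, acid alpha-glucosidase, which breaks down glycogen inside lysosomes and is the enzyme lost in Pompe disease, was the only one of the 11 other soluble proteins called higher. It measured 10.39, 10.44, 10.48 and 10.52 on the unloaded arrays, against 10.05, 10.02, 10.00 and 10.10 on the weight bearing arrays. The lowest unloaded array was well above the highest weight bearing array. The difference was 0.42 ± 0.05, or 1.33-fold (adjusted p = 0.000304).

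The fall was found in 3 enzymes that act on lipids and lipid-modified proteins. Ppt1, palmitoyl-protein thioesterase, which strips fatty acids from proteins, measured 8.30, 8.31, 8.32 and 8.22 in unloaded muscle, against 8.64, 8.66, 8.60 and 8.64 in weight bearing muscle. The arrays of each group lay close together and the groups were well apart, with a difference of -0.35 ± 0.04, or 1.28-fold lower (adjusted p = 0.000487). Asah1, acid ceramidase, measured 8.35, 8.37, 8.33 and 8.19 in unloaded muscle, against 8.55, 8.68, 8.77 and 8.60 in weight bearing muscle. The difference was -0.34 ± 0.06 without overlap (adjusted p = 0.00418). Lipa, lysosomal acid lipase, which frees cholesterol and fatty acids from stored esters, measured 7.41, 7.11, 7.26 and 7.29 in unloaded muscle, against 7.64, 7.65, 7.50 and 7.57 in weight bearing muscle. Its groups were separate as well, with a difference of -0.32 ± 0.07 (adjusted p = 0.00703, and 0.0503 by the methods' t-test).

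Both glycosidases that were lower had changes near 1.2-fold. Glb1, beta-galactosidase, measured 6.25, 6.26, 6.38 and 6.35 in unloaded muscle, against 6.55, 6.59, 6.61 and 6.54 in weight bearing muscle, and Gusb, beta-glucuronidase, measured 6.72, 6.69, 6.78 and 6.74, against 7.08, 6.99, 6.86 and 7.02. In both genes the highest unloaded array stayed under the lowest weight bearing array. The differences were -0.26 ± 0.05 for Glb1 (adjusted p = 0.0042) and -0.25 ± 0.05 for Gusb (adjusted p = 0.00851, and 0.0549 by the methods' t-test).

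Psap, the precursor of the saposins that present sphingolipids to their hydrolases, missed the threshold by little. It measured 11.73, 11.80, 11.72 and 11.75 in unloaded muscle, against 11.87, 11.88, 11.85 and 11.92 in weight bearing muscle. The groups did not overlap, and the difference of -0.13 had a 95% confidence interval of -0.23 to -0.03 (limma adjusted p = 0.0588, and 0.0227 by the methods' t-test). The other uncalled genes were Npc2, which carries cholesterol inside the lysosome (interval -0.22 to 0.06), Hexa, which takes part in ganglioside breakdown (-0.13 to 0.07), Man2b1, an alpha-mannosidase (-0.20 to 0.14), and Tpp1, tripeptidyl peptidase (-0.08 to 0.15). The HU and WB arrays overlapped for all 4 of them.

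All 4 membrane genes that were called were higher. Npc1, the membrane transporter that moves cholesterol out of the lysosome, had the largest rise of the 42 genes. Its level was 10.24, 10.37, 10.26 and 9.92 in unloaded muscle, against 9.43, 9.40, 9.47 and 9.44 in weight bearing muscle. Unloaded replicate 4 was lower than the other unloaded arrays but still above every weight bearing array. The difference was 0.76 ± 0.08, or 1.69-fold (adjusted p = 0.000236). Npc2, the soluble protein that hands cholesterol to Npc1, had a difference of -0.08 and was not called.

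Mcoln1, mucolipin 1, a calcium-releasing channel of the lysosomal membrane, measured 9.59, 9.66, 9.67 and 9.64 in unloaded muscle, against 9.36, 9.32, 9.32 and 9.47 in weight bearing muscle. The groups were separate, and the difference was 0.28 ± 0.05, or 1.21-fold (adjusted p = 0.00338). Of the 6 genes with TCACGTGA in the promoter it was the 1 called higher.

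Lamp1 and Lamp2, the abundant glycoproteins that line the lysosomal membrane, rose by less than 1.2-fold. Lamp1 measured 11.35, 11.34, 11.35 and 11.33 in unloaded muscle, against 11.21, 11.17, 11.18 and 11.21 in weight bearing muscle, and Lamp2, which also takes part in autophagy, measured 10.59, 10.44, 10.61 and 10.45, against 10.35, 10.37, 10.36 and 10.32. No array of one group fell within the range of the other in either gene, and the unloaded arrays of Lamp2 were the more scattered. The differences were 0.15 ± 0.04 for Lamp1 (adjusted p = 0.0245) and 0.17 ± 0.05 for Lamp2 (adjusted p = 0.0426). These calls were the least firm of the group, with an adjusted p of 0.0609 for Lamp1 without weight bearing replicate 2, and of 0.109 without unloaded replicate 3, 0.0717 without weight bearing replicate 2 and 0.11 by the methods' t-test for Lamp2. Scarb2, the receptor that brings beta-glucocerebrosidase to the lysosome, had a difference of -0.10 (interval -0.23 to 0.04), and Cd63, a tetraspanin of late endosomes and lysosomes, one of 0.03 (interval -0.12 to 0.18). Neither was called. Without weight bearing replicate 2, 2 of the 6 membrane genes (Npc1 and Mcoln1) were called higher.

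**Figure D4:**
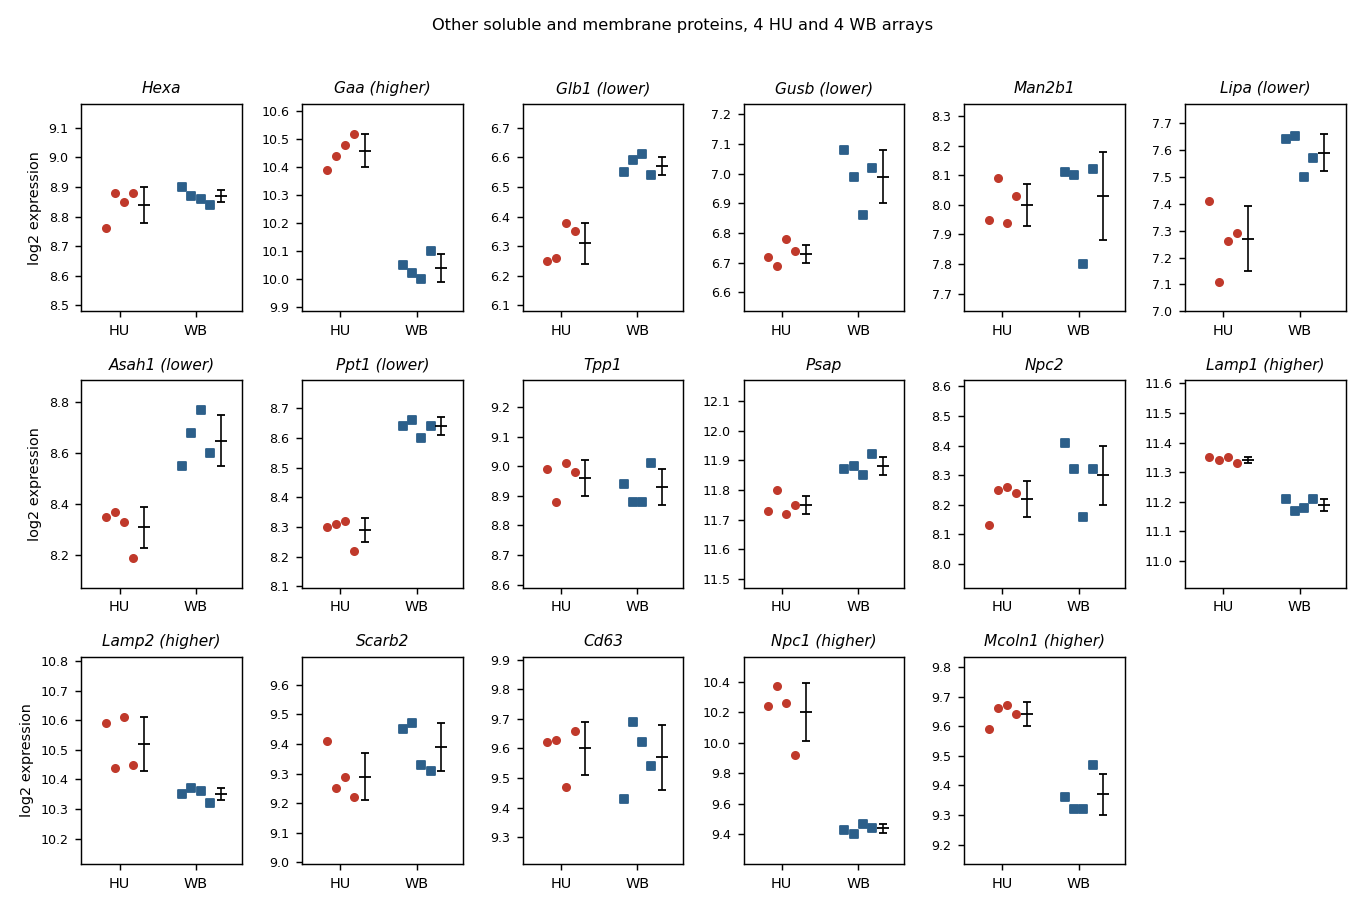
Log2 expression of the 11 other soluble proteins and the 6 membrane proteins on the unloaded (HU) and weight bearing (WB) arrays; points are arrays, bars are means ± SD (n = 4), and each panel has its own axis. Gaa, Npc1, Mcoln1, Lamp1 and Lamp2 are higher in HU and Ppt1, Asah1, Lipa, Glb1 and Gusb are lower, and the unloaded Npc1 arrays run from 9.92 to 10.37.

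The V-ATPase consists of a V1 sector in the cytosol, which splits ATP, and a V0 sector in the membrane, through which protons pass. Calls were found in V1 genes. Of 8 V1 genes 3 were higher and 0 lower, while of 4 V0 genes 0 were called (range of differences -0.07 to 0.09), as were 0 of 2 accessory subunits, and the V0 and accessory counts were also 0 in the methods' t-test and when p was left unadjusted. Of the 14 pump genes 21.4% were higher and 0.0% lower, against 16.5% and 18.4% of the brighter probe sets described above. The methods' t-test called 1 pump gene higher. With 8 and 4 genes the counts are too small to set V1 against V0. Whether V1 and V0 genes differed was not tested.

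Atp6v1h, subunit H, which links and regulates the sectors, measured 7.97, 7.79, 7.80 and 7.69 in unloaded muscle, against 7.55, 7.47, 7.45 and 7.52 in weight bearing muscle. The groups did not overlap and the difference was 0.32 ± 0.06, or 1.24-fold (adjusted p = 0.00531, and 0.0512 by the methods' t-test). Atp6v1d, subunit D of the rotating stalk, measured 10.43, 10.32, 10.33 and 10.28 in unloaded muscle, against 10.10, 10.03, 10.18 and 10.15 in weight bearing muscle. It too was separate between the groups, with a difference of 0.22 ± 0.05 (adjusted p = 0.0122). Atp6v1c1, subunit C, a peripheral stalk protein that lets V1 dock on V0, measured 8.59, 8.60, 8.52 and 8.47 in unloaded muscle, against 8.30, 8.16, 8.29 and 8.46 in weight bearing muscle. Weight bearing replicate 4 almost reached the lowest unloaded array. The difference was 0.24 ± 0.07 (adjusted p = 0.0242), and the adjusted p was 0.0655 without unloaded replicate 2, 0.0593 without weight bearing replicate 2 and 0.0924 by the methods' t-test.

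The 5 other V1 genes were the catalytic subunit A (Atp6v1a, difference -0.05), the nucleotide-binding subunit B2 (Atp6v1b2, -0.08) and the stalk subunits E1 (Atp6v1e1, 0.09), F (Atp6v1f, 0.08) and G1 (Atp6v1g1, -0.10). Of the V0 genes, Atp6v0e measured 9.02, 8.99, 8.99 and 9.05 in unloaded muscle, against 8.95, 8.88, 8.93 and 8.94 in weight bearing muscle. Its groups did not overlap, but the difference of 0.09 had an interval of -0.01 to 0.18 and was not called (adjusted p = 0.177). The proton-channel subunits Atp6v0a1 and Atp6v0b, with the stalk-capping subunit Atp6v0d1, had differences of -0.01, -0.07 and 0.03, and the accessory proteins Atp6ap1 and Atp6ap2, which help assemble the pump, had -0.06 and 0.03. Over the 11 uncalled pump genes the 95% confidence intervals lay between -0.27 and 0.21.

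**Figure D5:**
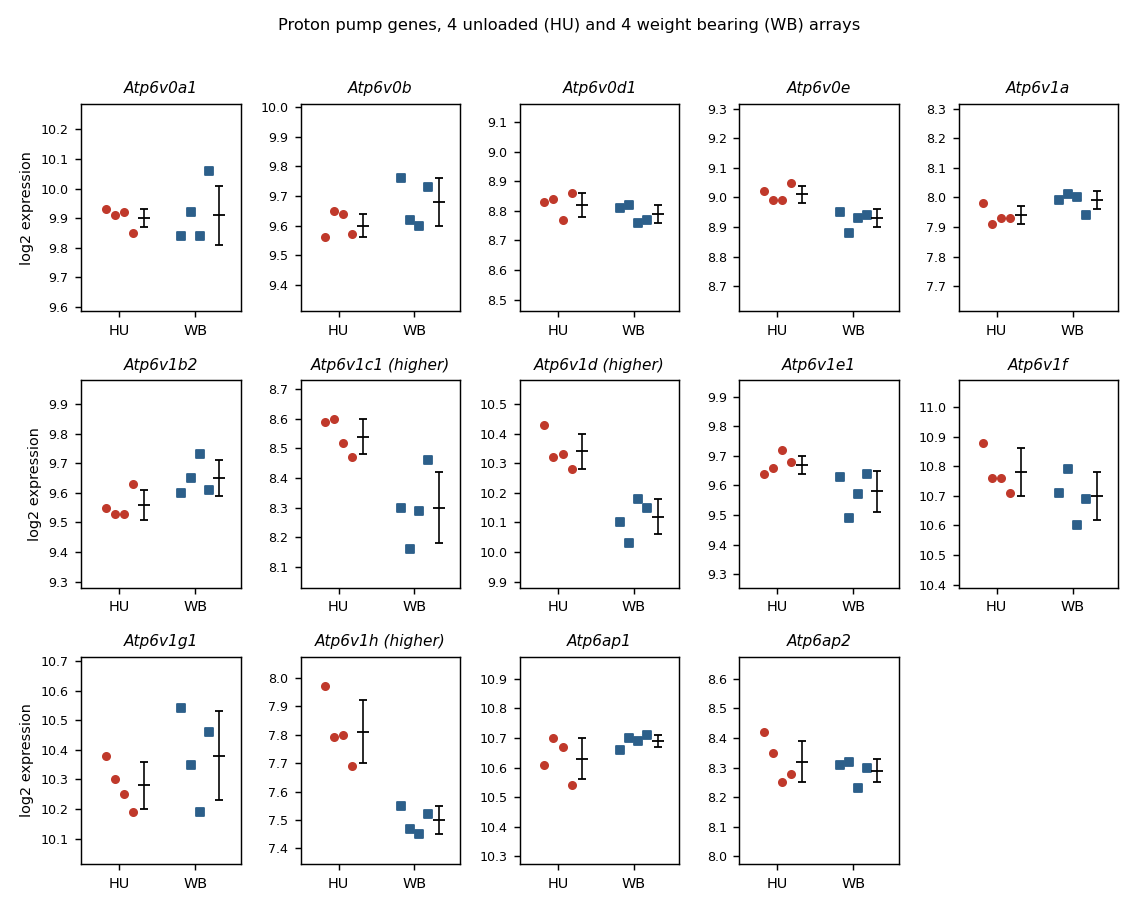
Log2 expression of the 14 proton pump genes on the unloaded (HU) and weight bearing (WB) arrays; points are arrays, bars are means ± SD (n = 4), and each panel has its own axis. Atp6v1h, Atp6v1d and Atp6v1c1 are higher in HU, with Atp6v1h at 7.69 to 7.97 against 7.45 to 7.55, and the arrays of the other pump genes overlap except for Atp6v0e.

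Further lysosomal genes outside the 42 were counted in the same fit. Of 27 other hydrolases 3 were higher (11.1%) and 6 lower (22.2%). All probe sets gave 12.8% and 11.0%, and the brighter probe sets described above gave 16.5% and 18.4%. How many genes of this list and of the lists below were among the brighter probe sets was not counted. Arsb, arylsulfatase B, which acts on dermatan sulfate, fell by 0.43, Lgmn, the asparaginyl endopeptidase legumain that processes cathepsins, fell by 0.32, and Dpp7, a dipeptidyl peptidase, fell by 0.28. Plbd2, Ids, the iduronate sulfatase, and Neu1, the neuraminidase of the cathepsin A complex, were higher by 0.22, 0.19 and 0.19. By the methods' t-test the counts were 1 and 2, and without weight bearing replicate 2 they were 1 and 4. Neu1 lost its call without any 1 of 5 arrays. Plbd2 lost its call without any single array other than weight bearing replicate 4, and by the methods' t-test (adjusted p = 0.137). Of 19 other lysosomal membrane proteins 2 were higher (10.5%, against 12.8% of all and 16.5% of the brighter probe sets). They were Tmem175, a potassium and proton channel (0.26), and Sidt2 (0.23). Another 4 were lower (21.1%, against 11.0% of all and 18.4% of the brighter probe sets). Among these 4 were Ostm1, the partner of a chloride transporter (-0.45), and Laptm5, a protein of blood cells (-0.43).

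Of 19 other V-ATPase subunits and assembly factors 3 were higher (15.8%) and 2 lower (10.5%), shares near those of all probe sets, and the methods' t-test called 1 and 1. Among the higher was Dmxl2, a factor that joins V1 to V0 (0.34, adjusted p = 0.0689 by the methods' t-test). The lower were Atp6v0a4, a V0 subunit best known from kidney (-0.52), and Ncoa7 (-0.24), which lost its call by the methods' t-test (0.0804) and without any 1 of 5 arrays, weight bearing replicate 2 among them (0.0706). Without that array 2 genes of this list were higher. Genes that sort enzymes to the lysosome gave 3 higher and 3 lower of 12 (25.0% each). These shares stand beside 12.8% and 11.0% of all probe sets, and 16.5% and 18.4% of the brighter probe sets. Among the lower sorting genes, Vps29 lost its call without weight bearing replicate 2 (limma adjusted p = 0.0661). Sort1, sortilin, and Gnptg, a subunit of the enzyme that makes the mannose 6-phosphate tag, were higher by 0.29 and 0.27, whereas Igf2r, the receptor for that tag, had a difference of -0.22. Inhibitors of cysteine cathepsins, mostly cystatins and stefins, gave 0 of 10 by limma. The count was also 0 in the methods' t-test and when p was left unadjusted. Several of them were dim, such as Stfa2, Stfa3 and Kng1 with unloaded means of 3.20, 3.25 and 3.59, so the count says little about those.

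Among the TFEB family, 1 of 4 genes was called. Tfeb itself measured 8.65, 8.73, 8.76 and 8.71 in unloaded muscle, against 8.47, 8.56, 8.44 and 8.60 in weight bearing muscle. The groups did not overlap, and the difference was 0.20 ± 0.05 (adjusted p = 0.0227). The adjusted p was 0.0513 by the methods' t-test and up to 0.0631 when single arrays were left out. Tfe3, Mitf and Tfec were not called, with differences of 0.06, 0.08 and 0.11.

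The study also mapped promoter binding of Bcl-3, a coactivator of the NF-kB family, in unloaded muscle. Lipa, Ppt1, Psap, Scarb2 and Atp6v0d1 are on its list of genes with a promoter peak. Of these 5 genes 0 were higher, 2 were lower (Lipa and Ppt1) and 3 were not called. The count of higher genes was also 0 in the methods' t-test and when p was left unadjusted. By the methods' t-test Lipa lost its call (adjusted p = 0.0503) and Psap was called lower (0.0227). Among all probe sets 12.8% were higher and 11.0% lower by limma, and 5 genes are too few to set against these shares.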

How the data were processed

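Total RNA of gastrocnemius and plantaris was hybridised by the authors to Affymetrix Mouse Gene 1.0 ST arrays, 4 unloaded and 4 weight bearing. The log2 expression values deposited by the authors were made by RMA (robust multi-array averaging with background correction, quantile normalization and a summary per probe set) from a custom CDF, which removes shifts of all genes together. Neither the release of that CDF nor a genome build is named (not given in the sources used here). Probe sets therefore carry no coordinates. Every sample's column was used and 0 remained unused. No arrays held identical values.

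Deposited log2 values were compared without a filter in limma 3.58.1 (lmFit and eBayes, two-sided) under R 4.3.3, and p-values were adjusted by Benjamini-Hochberg for all 21212 probe sets. Symbols came from the platform annotation updated through RefSeq, with 18786 probe sets having 1 symbol, 6 several and 2420 none. All 42 genes were matched. Python 3.11.15, pandas 2.3.3, numpy 2.4.6 and matplotlib 3.10.9 served the rest. The fit was tested on simulated arrays with the means and spreads of these probe sets. Limma recovered 23.9% of changes of 0.25, 73.1% of changes of 0.5 and 97% of changes of 1.0. The methods' t-test recovered 7.46%, 44.8% and 74.2%, so small changes were often missed by both. Fewer probe sets were changed there than were called here, so these shares may not carry over. The number of arrays limits the precision.

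The 42 genes, the 6 lists of other lysosomal genes and the 7 marker lists were chosen with earlier results of these data known. Values of every array were given for up to 5 genes called in each direction and group, by size of change, and for up to 3 others per group with the smallest p or without overlap. Of other lysosomal lists up to 5 called genes a direction could be named, and of marker lists the called and defining genes. Other genes of the TFEB family were named after their values were seen. The methods' t-test has unequal variances and Benjamini-Hochberg adjustment. Further alternatives were an equal-variance t-test, limma with an intensity trend and robust variance, limma with array weights, no adjustment of p, a minimum change of 1.2-fold, removal of the dimmest 50% of probe sets, a second quantile normalization, centring of each array at a median of 0, a block for the replicate number and omission of each array in turn. Some listed genes, such as Cd68 and Atp6v0c, were not matched by name and are not analysed here.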

Additional observations from a re-analysis of the deposited data

Results flagged for a closer look

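In a group of 4 arrays an array was noted when its gap to the nearest other array, as a share of the group's range, was above Dixon's 95% critical value. Of 196 groups examined 12 were noted, and 2 of 84 among the 42 lysosomal genes. Chance notes about 1 in 20 groups.

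Among the lysosomal genes, Npc2 was 8.13 on unloaded replicate 1, against 8.24 to 8.26 on the other unloaded arrays. Man2b1 was 7.80 on weight bearing replicate 3, against 8.10 to 8.12 on the other weight bearing arrays.

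On weight bearing replicate 2, 4 neutrophil genes stood above the other weight bearing arrays. S100a8 was 5.97 (others 4.07 to 4.35), S100a9 6.72 (others 5.27 to 5.32), Mpo 6.22 (others 5.01 to 5.10) and Elane 5.77 (others 4.96 to 4.99). The same array had the highest Ctsk, at 7.75, and without it the difference of Ctsk was -0.70.

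Of the remaining genes, Tmem175 was 7.62 on unloaded replicate 2 (7.71 on each of the others) and Col3a1 was 7.30 on unloaded replicate 1 (others 7.49 to 7.53). Mmp9 was 6.13 on unloaded replicate 3 (others 6.25 to 6.26). On weight bearing replicate 2 Mmp9 was 7.91 (others 6.36 to 6.65), which stayed under the critical value and was not noted. Sort1 was 9.25 (others 9.13 to 9.15) and C1qc 7.69 (others 7.84 to 7.87) on weight bearing replicate 3, and Csf3r was 5.40 on weight bearing replicate 4 (others 5.53 to 5.56).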

How the results depend on the processing

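Of the 20 called lysosomal genes, 8 kept their call under all 18 alternatives, namely Ctsl, Ctsh, Ctsc, Gaa, Ppt1, Asah1, Npc1 and Mcoln1, and none of the 20 changed sign. With a change of at least 1.2-fold required, 5 of the 42 genes were higher and 7 lower, with 3 soluble proteins lower, 2 membrane proteins higher and 1 pump gene higher. By the methods' t-test 7 of the 42 were lower, with 3 cathepsins lower and 1 pump gene higher. Quantile normalization ended the call of Ctsa (adjusted p = 0.053) and array medians of 0 that of Lamp2 (adjusted p = 0.0529). Psap was called lower by 5 alternatives (the methods' t-test, the equal-variance t-test, the intensity trend, the unadjusted p and the filter on dim probe sets), and Atp6v0e higher by the equal-variance t-test (adjusted p = 0.0472). Over the alternatives that kept all arrays, the other hydrolases gave 0 to 3 higher and 2 to 6 lower, other membrane proteins 1 to 5 and 2 to 4, other V-ATPase genes 1 to 5 and 0 to 3, sorting genes 2 to 3 and 0 to 4, and Tfeb was called or not.

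With single arrays left out, 6 to 9 of the 42 genes were higher and 9 to 11 lower. Cathepsins lower numbered 4 to 6, membrane proteins higher 2 to 4 and pump genes higher 2 to 3, while 5 other soluble proteins were lower each time. The membrane count was 2 without unloaded replicate 3 and without weight bearing replicates 1, 2 or 3. Other hydrolases numbered 1 to 3 higher and 4 to 6 lower, 1 higher without unloaded replicates 2, 3 or 4 or weight bearing replicates 1 or 2. Fibre markers lower numbered 3 to 5, with 3 without unloaded replicates 2, 3 or 4 or weight bearing replicates 1, 2 or 3, and also 3 under quantile normalization and the block and 2 at 1.2-fold. Calcr was called lower without weight bearing replicate 3 (adjusted p = 0.0159), with array weights (0.0323), after quantile normalization (0.0146) and with array medians of 0 (0.0411). Of the 42 genes only Ctsa, Ctsb, Lamp1, Lamp2 and Atp6v1c1 lost a call in this way.

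Same-numbered arrays correlated at 0.0242, 0.0366, 0.12 and 0.0954 in their deviations from the group means. Differently numbered arrays correlated at -0.1376 to 0.1024. Whether the replicate numbers pair the arrays was not tested, and the main fit did not pair them. With the replicate number as a block, Ctsb, Lamp1, Lamp2 and Atp6v1c1 lost their calls and 2 membrane proteins were higher.

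Signs turned only in genes that were not called. With quantile normalization the difference was 0.005 for Ctsd, 0.007 for Atp6v0a1 and -0.023 for S100a8. With single arrays left out it ran from -0.037 to 0.014 for Ctsd, from -0.080 to 0.010 for Ctsz, from -0.104 to 0.003 for Man2b1, from -0.019 to 0.070 for Cd63 and from -0.035 to 0.038 for Atp6v0a1. The range was -0.467 to 0.124 for Acp5, -0.285 to 0.119 for Mpo, -0.165 to 0.106 for Elane and -0.142 to 0.494 for S100a8, whose upper ends were all reached without weight bearing replicate 2. Causes of these changes were not tested. A mean over several probe sets of a gene gave no separate value, since each measured gene of the lists had 1.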
